A study of Mus musculus with 6 samples.

Results

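The genes described here are 9 peptide hormone genes of the gut and Tph1, the rate-limiting enzyme of serotonin synthesis in the intestine: Gip, Cck, Sct, Ghrl, Sst, Gcg, Pyy, Nts, Tac1 and Tph1. They are 10 of the 46078 genes in the count table and were found by their symbols. The set was chosen by name, but with the age differences of these same libraries already known, so those differences are given as a description and the number of genes that passed is no evidence about the set. RNA was sequenced from 3 young and 3 aged untreated C57BL/6JRj mice, 2 to 3 and 20 to 22 months old, and the comparison asks how the gut epithelium differs with age. Cells were sorted from digested small intestine as EpCam-positive and CD45-negative, and the series design names its proximal part. The libraries were taken as 1 per mouse. The labels name no transgene, deletion, sex or batch.

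Enteroendocrine cells are scattered, hormone-secreting cells of the gut lining that arise from crypt stem cells through progenitors expressing Neurog3. They sense nutrients at the lumen and release peptides or serotonin toward blood vessels and nerves. Their subtypes differ along the gut: Gip, Cck, Sct, Ghrl and Sst are typical of the proximal small intestine, Gcg, Pyy and Nts of more distal segments, and Tph1 with Tac1 marks the enterochromaffin cells that make serotonin.

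In aged mice Gip and Sst fell, no gene of the set rose by the test, and the serotonin enzyme gene Tph1 stood higher in each aged library than in any young one without passing. Of the 10 genes, 2 were called lower in aged mice (edgeR, quasi-likelihood; Benjamini-Hochberg over 14923 genes, adjusted p below 0.05), where 0.784% of all tested genes were. None was called higher, against 0.623% of all tested genes; DESeq2 and limma-voom called 0 higher as well (1.38% and 0.523% of all tested genes), and they called 3 and 2 lower (1.85% and 0.677%). At an unadjusted p below 0.05 in edgeR, 6 were lower and 1 higher, against 5.33% and 3.9% of all tested genes. All aged libraries lay below all young ones for 4 of the genes (Gip, Sst, Cck and Nts; 7.49% of all tested genes) and above them for 1 (Tph1; 6.3%). The count of 2 changed when single libraries were left out: it was 0 without young replicate 3 or aged replicate 1 or 2, and 1 without young replicate 1 or young replicate 2. Each such fit had 2 libraries in 1 group. Calls of lower genes over the whole table moved as well, from 117 to 66, 30 and 37 without young replicate 3, aged replicate 1 and aged replicate 2. They were 66 and 132 without young replicates 1 and 2. Over all alternatives the log2 fold change stayed between -0.54 and -0.40 for Gip and between -1.225 and -0.764 for Sst. The median log2 fold change of the set was -0.53, with 8 of 10 values below 0, and that of all tested genes was 0.0065, with 48.2% below 0. Among those 8, Sct and Pyy lay at -0.02 each, and the sign of each changed in 4 of 15 alternatives. In RNA from a mixed sort, fewer cells of a type and less RNA per cell cannot be told apart.

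The upstream sequences of both called genes are shown because they are the parts of the set whose level passed the test. They were taken from RefSeq promoters on GRCm38.p6, where all 10 genes had an entry. The stretch of Gip is chr11:96024295-96024544 on the plus strand, the 250 bases before its start site. Capitals mark AGATAA, the motif bound by GATA factors, searched on both strands and found in 9.99% of 32851 promoter windows of the same length. The stretch of Sst is the 30 bases of chr16:23890874-23890903 on the minus strand, around a match that starts 48 bases before the RefSeq start site. Capitals mark TGACGTCA, the cyclic AMP response element, which reads the same on both strands and was found in 1.55% of windows. The GENCODE start of Sst lies 114 bases further upstream, so this stretch is within the first exon there.
Gip: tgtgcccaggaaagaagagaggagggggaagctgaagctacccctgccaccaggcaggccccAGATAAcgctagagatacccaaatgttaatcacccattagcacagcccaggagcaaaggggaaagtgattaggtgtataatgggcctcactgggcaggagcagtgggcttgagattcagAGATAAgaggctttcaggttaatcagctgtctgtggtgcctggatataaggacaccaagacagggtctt
Sst: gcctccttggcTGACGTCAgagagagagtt

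Gip held 2 matches of AGATAA and Sst 1 of TGACGTCA. Sst had 0 matches of the first and Gip 0 of the second within 250 bases. AGATAA also had 1 match each before Cck, Tac1 and Nts, so it is not particular to Gip. Other motifs were searched as well. Among them, CANNTG had 2 matches in Gip and 1 in Sst (found in 66.2% of windows). TAAT had 5 and 1 (54.9% of windows). No value here bears on binding at any of these.

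Gip, the incretin hormone of K cells that raises insulin release after a meal, was the most abundant of the set. The gene (ENSMUSG00000014351) lies on chromosome 11, 96024545 to 96030831 on the plus strand (GRCm38, GENCODE M21). Its level was 248.5, 231.7 and 248.6 CPM in young replicates 1 to 3 and 185.4, 158.3 and 184.1 CPM in aged replicates 1 to 3 (CPM, counts scaled to library size with TMM factors). The young libraries lay close together and every aged library was below them. The means were 242.9 ± 9.73 and 175.9 ± 15.3 CPM (SD, n = 3 each), a log2 fold change of -0.46 ± 0.08 (SE) and a level 27.6% lower in aged mice (edgeR adjusted p = 0.0285). Leaving out young replicate 1, young replicate 3, aged replicate 1 or aged replicate 2 took the edgeR adjusted p to 0.125, 0.103, 0.0878 and 0.113; over all alternatives the range was 1.32e-04 to 0.125, and the log2 fold change stayed between -0.54 and -0.40.

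Sst encodes somatostatin, the peptide of D cells that restrains the release of other gut hormones. It lies on chromosome 16, 23889573 to 23890958 on the minus strand (ENSMUSG00000004366). The young libraries held 54.1, 44.2 and 57.7 CPM and the aged ones 20.9, 27.2 and 33.9 CPM. No aged library reached the lowest young one, and the spread among aged libraries was wide for their level. Sst fell from 52.0 ± 7.01 to 27.3 ± 6.54 CPM (SD, n = 3 each), which is 47.4% lower, at a log2 fold change of -0.93 ± 0.17 (edgeR adjusted p = 0.0433). This call depended on the libraries: only without aged replicate 3 was it kept among the fits with 1 library left out (edgeR adjusted p = 0.0123), and without young replicate 1, 2 or 3 or aged replicate 1 or 2 the edgeR adjusted p was 0.150, 0.0513, 0.174, 0.0984 and 0.146. It was 0.0965 without the low-count filter and 0.0547 with a filter of 1 CPM in 3 libraries, and ranged from 1.25e-05 to 0.174 over all alternatives. The log2 fold change of Sst stayed between -1.225 and -0.764.

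**Figure D1:**
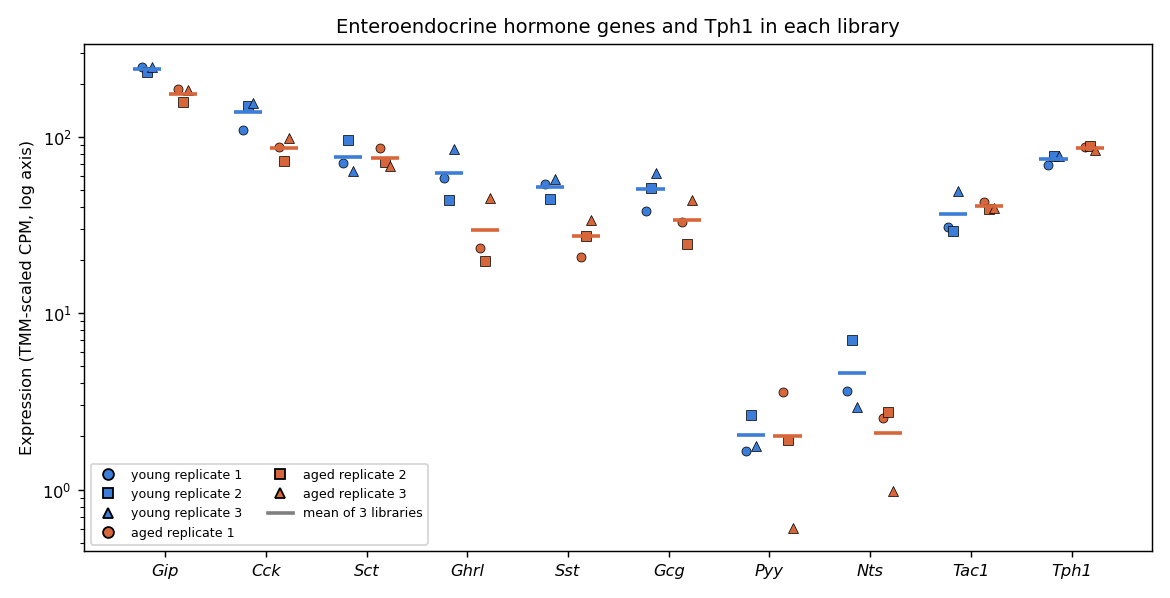
Expression of the 10 genes in each library (TMM-scaled CPM, log axis); each point is 1 library, its shape gives the replicate number within an age group, and lines are means of 3. Aged points of Gip, Sst, Cck and Nts lie below every young point, those of Tph1 lie above, and Pyy and Nts are at most 7.05 CPM.

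Cck, Ghrl and Sct are the other hormones typical of the upper small intestine. Cholecystokinin, from I cells, drives gallbladder emptying and pancreatic enzyme release. Its gene, Cck (chromosome 9, 121489824 to 121495694, minus strand), held 108.9, 149.2 and 155.2 CPM in the young libraries, against 88.0, 72.4 and 98.6 CPM in the aged ones. The groups did not overlap, but young replicate 1 lay nearer to aged replicate 3 than to the other young libraries. The log2 fold change was -0.67 ± 0.15 and missed the threshold (edgeR adjusted p = 0.0894). DESeq2 called it lower (adjusted p = 0.00126), as did edgeR without young replicate 1 (adjusted p = 0.0321); the range over the alternatives was 0.00126 to 0.280.

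Ghrl encodes ghrelin, the appetite-stimulating peptide of X/A-like cells, which the stomach makes in larger amounts than the intestine. The gene is at 113716119 to 113719880 on chromosome 6, minus strand. Its level was 58.6, 43.9 and 85.5 CPM in the young libraries, against 23.5, 19.8 and 45.1 CPM in the aged ones. Only aged replicate 3 overlapped the young group, and it stood above young replicate 2. The log2 fold change of -1.08 ± 0.38 did not pass (edgeR adjusted p = 0.409, range over the alternatives 0.0159 to 0.809). The low end came from leaving out both young replicate 2 and aged replicate 3, which changed the log2 fold change to -1.74. Ghrl overlaps 2 transcripts on the opposite strand in GENCODE M21, Gm26982 and Gm44033, and the library kit keeps the strand, but the setting used in counting is not given.

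Stomach markers beside Ghrl were mixed. The proton pump subunit gene Atp4b had 0 counts in all libraries and Gkn1 had 1 count in all at each age, but the pepsinogen gene Pgc was at 13.0, 9.23 and 20.0 CPM in the young libraries, against 16.9, 16.9 and 32.5 CPM in the aged ones (edgeR adjusted p = 0.703). Pgc and Ghrl were both highest in replicate 3 of each age. The summed level of the 8 gastric genes, most of it Pgc, ranged from 10.9 to 22.1 CPM at the young age and from 18.8 to 34.8 CPM at the aged one, and its part in the Ghrl result was not tested.

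Sct encodes secretin, the S-cell hormone that triggers bicarbonate secretion by the pancreas (chromosome 7, 141278330 to 141279133, minus strand). It was at 70.6, 95.7 and 63.7 CPM in the young libraries, against 86.6, 71.6 and 68.4 CPM in the aged ones. These values were interleaved, with a log2 fold change of -0.02 ± 0.15 (edgeR adjusted p = 0.986). Its sign depended on which libraries were included: it was 0.16, 0.01 and 0.04 without young replicate 2, aged replicate 2 and aged replicate 3. The precision of 3 libraries a group limits what such a value can show, and it is no evidence that Sct was equal at both ages.

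Gcg, Pyy and Nts belong to cells that are commoner toward the ileum and colon. Gcg encodes proglucagon, from which intestinal L cells cut GLP-1 and GLP-2, and it lies on chromosome 2, 62474530 to 62483650, minus strand. Its level was 38.1, 51.4 and 62.5 CPM in the young libraries, against 32.7, 24.5 and 43.8 CPM in the aged ones. Aged replicate 3 stood above young replicate 1, and the log2 fold change of -0.59 ± 0.24 did not pass (edgeR adjusted p = 0.506, range over the alternatives 0.135 to 0.907).

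Pyy, the L-cell peptide that slows gut transit and curbs appetite, was near the bottom of the set (chromosome 11, 102106676 to 102107832, minus strand). Its counts were 73, 157 and 74 in the young libraries, against 168, 87 and 34 in the aged ones, or 1.66, 2.65 and 1.78 CPM and 3.55, 1.91 and 0.606 CPM. The highest and the lowest of the 6 values were both in aged mice. The log2 fold change was -0.02 ± 0.53 (edgeR adjusted p = 0.995), and its sign turned to 0.22, 0.01 and 0.42 without young replicate 2, aged replicate 2 and aged replicate 3.

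Nts encodes neurotensin, a peptide released by N cells after fat intake (chromosome 10, 102481756 to 102490486, minus strand). It held 3.64, 7.05 and 2.95 CPM in the young libraries, against 2.56, 2.76 and 0.980 CPM in the aged ones. Young replicate 2 was alone at the top and aged replicate 3 alone at the bottom, while the other 4 values were close to one another. The log2 fold change was -1.13 ± 0.44 (edgeR adjusted p = 0.441); over the alternatives it ran from -1.39 to -0.32, and the adjusted p from 0.108 to 0.793.

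Markers of gut region were measured beside these 3 genes. The summed level of the 7 ileal genes ranged from 80.1 to 98.6 CPM at the young age and from 53.5 to 88.0 CPM at the aged one, with Slc51a, a bile acid exporter subunit, as the most abundant, and that of the 9 proximal genes was 982.2 to 1372 and 890.4 to 1215 CPM. The defining ileal gene Fabp6, an intracellular bile acid carrier, was at 0.897 and 1.03 CPM on average and Slc10a2, the ileal bile acid importer, at 0.554 and 0.578 CPM. Of the proximal genes 1, the calcium channel gene Trpv6, was called lower by edgeR, with 252 counts over the young libraries and 0 over the aged ones. DESeq2, which called 1.85% of all tested genes lower, called Cybrd1 as well, at 3.59 and 1.82 CPM on average (edgeR adjusted p = 0.0581). Of the 9 proximal genes 3 were lower in every aged library and 0 higher, against 7.49% and 6.3% of all tested genes. Of the 6 ileal genes tested 0 separated the ages in either direction. Neither regional sum separated the ages, and its part in the results was not tested.

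Tph1 and Tac1 are the enterochromaffin genes of the set. Tph1 was at 69.4, 77.9 and 77.8 CPM in the young libraries, against 87.1, 88.6 and 84.1 CPM in the aged ones, and was thus the only gene of the set that lay higher in every aged library. The means were 75.0 ± 4.90 and 86.6 ± 2.31 CPM (SD, n = 3 each), a log2 fold change of 0.21 ± 0.07 that did not pass (edgeR adjusted p = 0.349, range over the alternatives 0.0999 to 0.944). The gene (ENSMUSG00000040046) lies on chromosome 7, 46644641 to 46672537 on the minus strand.

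Tac1 encodes substance P and neurokinin A, tachykinins that enterochromaffin cells share with enteric neurons (chromosome 6, 7554879 to 7565834, plus strand). Its young libraries held 30.8, 29.4 and 49.4 CPM and its aged ones 42.8, 39.1 and 39.6 CPM. Young replicate 3 was above all aged libraries and the other young ones below all of them. The log2 fold change was 0.15 ± 0.18 (edgeR adjusted p = 0.893), and it was 0.006 to 0.43 over the alternatives.

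Neurons, which use Tac1, Sst and Nts, and mast cells, which use Tph1, were checked by their markers. The summed level of 11 neuronal and glial genes ranged from 13.8 to 15.2 CPM at the young age and from 11.1 to 12.6 CPM at the aged one, without overlap, largely from Ret at 9.37 and 6.98 CPM. The glial regulator Sox10 had 0 counts in every library. Of 8 mast cell genes Cpa3, Mcpt2, Mcpt4 and Fcer1a had 0 counts throughout; Kit at 40.0 and 34.0 CPM made nearly all of the sum, which was 34.0 to 48.5 and 30.5 to 38.0 CPM. The islet genes Ins1 and Ins2 had 0 counts as well. The part of neurons and glia in the hormone results was not tested.

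**Figure D2:**
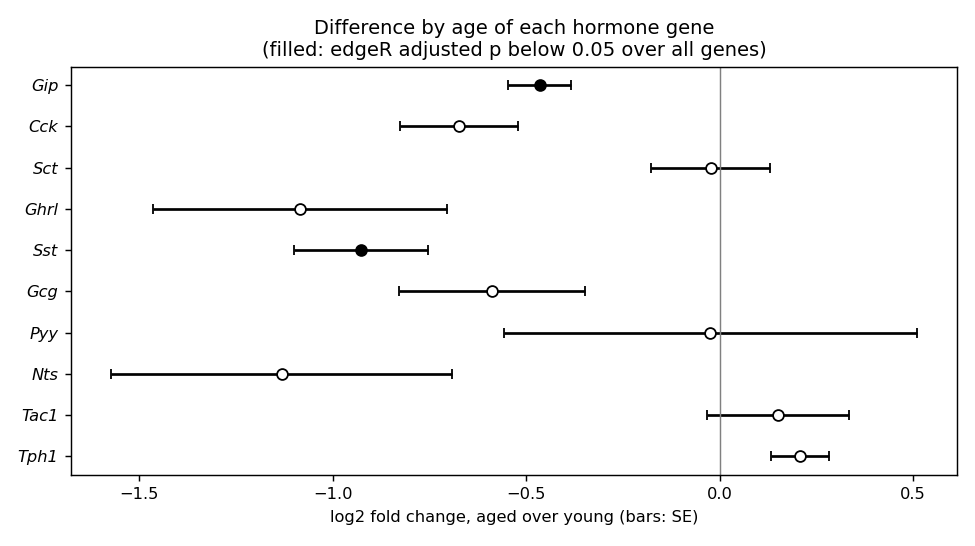
Log2 fold change of each gene, aged over young, with bars of 1 SE from the edgeR fit over all genes; filled points passed an adjusted p below 0.05. Gip at -0.46 and Sst at -0.93 are filled, and Tac1 and Tph1 are the 2 points above 0.

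Spread among mice differed between the genes. The coefficient of variation among young libraries was 4.01% for Gip and 6.53% for Tph1, and between 13.5% (Sst) and 48.3% (Nts) for the other 8. Among aged libraries Tph1 and Tac1 were the tightest at 2.67% and 4.99%, and Pyy at 73.0%, Nts at 46.4% and Ghrl at 46.2% were the widest. The 10540 genes with mean CPM in the range of the set had medians of 8.53% in young and 7.44% in aged libraries, and their 90th percentiles were 20.9% and 19.3%.

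Within an age group the libraries kept partly different hormone profiles. Young replicate 3 was the highest young library for 6 of the genes (Gip, Sst, Cck, Tac1, Ghrl and Gcg) and young replicate 1 for 0. Aged replicate 3 was the highest aged library for Sst, Cck, Ghrl and Gcg, and aged replicate 2 the lowest for Gip, Cck, Tac1, Ghrl and Gcg. On the second principal component of all tested genes, which held 22.8% of the variance, young replicate 2 at -35.0 and aged replicate 3 at 22.1 stood farthest out. Without both of them 3 of the genes were called lower (2 with all libraries), and over all genes 594 were called higher and 587 lower, against 93 and 117 with all libraries.

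Levels of different genes were compared as TPM, which divides counts by exon length. In young mice the order was Gip (1077 ± 3.22 TPM), Sct (364.4 ± 94.8), Cck (322.5 ± 64.1), Sst (219.2 ± 22.3), Ghrl (176.0 ± 54.9), Gcg (103.5 ± 25.0), Tph1 (37.1 ± 3.38), Tac1 (32.7 ± 9.32), Nts (11.3 ± 5.89) and Pyy (9.88 ± 3.06; all SD, n = 3). The neighbours Sct and Cck, Sst and Ghrl, Tph1 and Tac1, and Nts and Pyy had overlapping libraries. In aged mice the TPM order was the same but for the last pair, Pyy at 10.1 ± 7.07 and Nts at 5.35 ± 2.40. There, Sst and Ghrl, Ghrl and Gcg, and Pyy and Nts overlapped. Gip stood at 820.8 ± 75.7 TPM in aged mice, above the highest Sct library at 413.6 TPM. With the longest transcript as the length, Cck passed Sct in young mice and Tac1 passed Tph1 at both ages.

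The 10 genes together took 0.0676, 0.0735 and 0.0809% of all counts in young libraries and 0.0567, 0.0509 and 0.0604% in aged libraries. Within that sum, which weights each gene by its own counts, Tph1 and Tac1 made up 14.6 to 15.8% in young and 20.6 to 25.2% in aged libraries. The share of Tph1 alone was 10.1 ± 0.482% in young and 15.6 ± 1.77% in aged libraries (SD, n = 3 each). Gip, Cck, Ghrl and Sst made up 64.0 to 68.7% and 54.9 to 60.4%. Sst's own share was 7.03 ± 0.947% and 4.89 ± 1.09%, and that of Gip 32.9 ± 2.95% and 31.45 ± 0.827%. Shares of a fixed sum move against one another, so a lower share of some genes raises that of the rest.

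**Figure D3:**
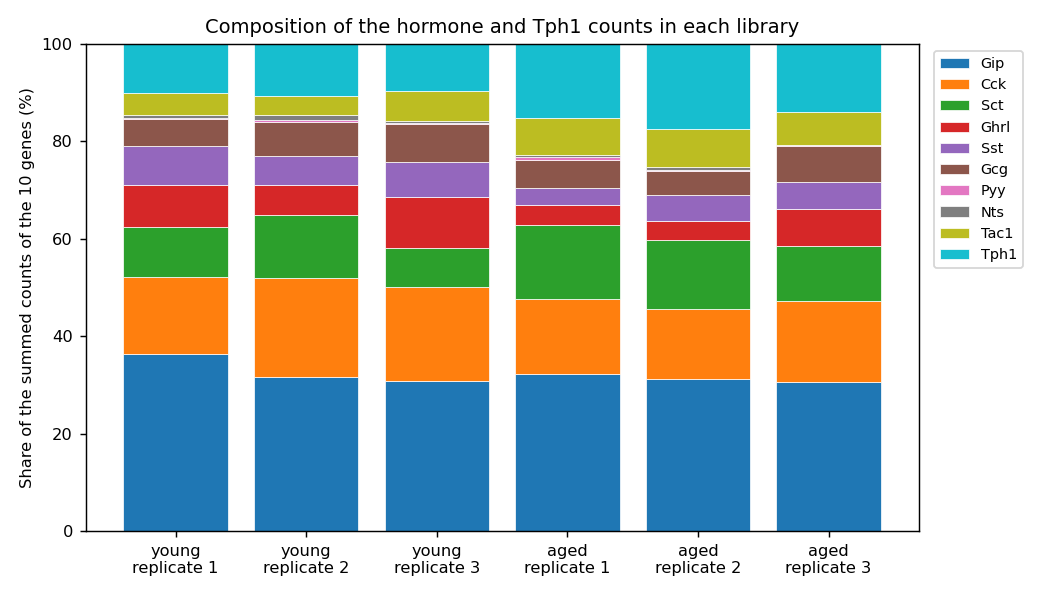
Share of each gene in the summed counts of the 10 genes (%), 1 bar for each library. The blocks of Tph1 and Tac1 at the top reach 20.6 to 25.2% in the aged libraries and 14.6 to 15.8% in the young ones, while Gip at the bottom takes 30.7 to 36.3% in all 6.

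Hormone counts were also set against the counts of 15 genes of secretory granules and prohormone processing, which all enteroendocrine subtypes use to a varying degree. Per 100 granule-gene counts there were 11.8 ± 1.86 counts of Gip at the young age and 7.38 ± 0.239 at the aged one, and 2.51 ± 0.407 and 1.15 ± 0.261 of Sst (SD, n = 3 each). The ratios were 6.59 ± 0.842 and 3.61 ± 0.347 for Cck, 2.96 ± 0.646 and 1.22 ± 0.508 for Ghrl, and 2.40 ± 0.268 and 1.40 ± 0.331 for Gcg. On this scale these 5 genes were lower in every aged library than in any young one, as were 14.6% of all tested genes. In CPM, Ghrl and Gcg overlapped. Nts and Tph1, separate in CPM, overlapped on this scale, as did Sct, Pyy and Tac1. For Nts, young replicate 3 was at 0.118 and aged replicate 2 at 0.125. Tph1 was at 3.63 ± 0.444 and 3.65 ± 0.316, and Tac1 at 1.722 ± 0.248 and 1.703 ± 0.0996. The granule sum itself was 1818 to 2494 CPM in the young libraries, against 2219 to 2493 CPM in the aged ones. The chromogranin genes Chgb (1374 CPM young and 1612 CPM aged on average) and Chga (506.1 and 582.9 CPM) made up most of it. The ratios are thus mainly ratios to Chgb and Chga, and the part of each enteroendocrine subtype in that sum was not measured. The mean of the granule sum was 2096 CPM in the young and 2382 CPM in the aged libraries, and a larger divisor lowers every ratio.

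Genes that serve these hormones were read from 7 further lists. Of 15 granule and prohormone processing genes edgeR called 1 lower and 0 higher, where 0.784% and 0.623% of all tested genes were. The gene called was Scg3, which encodes a granin that helps to sort cargo into granules. It went from 8.56 ± 1.47 to 3.66 ± 0.416 CPM (edgeR adjusted p = 0.0101). Without aged replicate 1 or 2 its edgeR adjusted p was 0.0697 and 0.0591, and the range over the alternatives was 7e-09 to 0.0697. The list's median log2 fold change was -0.09. Over the alternatives it ran from -0.217, without young replicate 2 and aged replicate 3 together, to 0.041, without young replicate 3. DESeq2, which called 1.85% of all tested genes lower, called 3 of these, Scg2, Scg3 and Pcsk1n. By any of the 3 tools 0 genes of the list were higher (0.623%, 1.38% and 0.523% of all tested genes by edgeR, DESeq2 and limma-voom). At an unadjusted p below 0.05 in edgeR 4 were lower and 0 higher, against 5.33% and 3.9% of all tested genes.

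Of the serotonin and amine genes 11 were tested and 0 called in either direction by edgeR, DESeq2 or limma-voom. Of all tested genes these tools called 0.784%, 1.85% and 0.677% lower and 0.623%, 1.38% and 0.523% higher. In edgeR 0 had an unadjusted p below 0.05, against 5.33% lower and 3.9% higher of all tested genes. In a list of 11 genes such zeros are near those shares and are no evidence that these genes were unchanged. Their log2 fold changes lay between -0.22 and 0.09, with a median of -0.03. Over the alternatives that median ran from -0.245, without young replicate 2 and aged replicate 3 together, to 0.026, without aged replicate 2. The most abundant were Maoa, which degrades serotonin, at 341.6 ± 74.0 and 357.0 ± 75.5 CPM, and Ddc, the decarboxylase that follows Tph1 in serotonin synthesis, at 160.1 ± 5.95 and 156.6 ± 12.7 CPM (SD, n = 3 each). Tph2, the form of neurons, had 0 counts in every library.

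All 19 transcription factors of the enteroendocrine lineage were tested. By any of the 3 tools 0 were called, where 0.523 to 1.85% of all tested genes were, by tool and direction. At an unadjusted p below 0.05 in edgeR there were 2 lower and 0 higher, where 5.33% and 3.9% of all tested genes were. Their log2 fold changes had a median of -0.07, which ran from -0.109 (without young replicate 2) to 0.011 (without young replicate 3) over the alternatives. Foxa1 was at 43.6 ± 4.79 and 51.9 ± 10.6 CPM and Neurog3, which commits progenitors to the lineage, at 27.9 ± 3.98 and 28.1 ± 1.45 CPM (SD, n = 3 each).

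Of 22 nutrient sensor and signalling genes of these cells 16 were tested. By edgeR and limma-voom 0 were called, where 0.784% and 0.677% of all tested genes were lower and 0.623% and 0.523% higher. DESeq2, which called 1.85% of all tested genes lower, called Trpc4 and Abcc8 lower. There were 6 lower and 1 higher at an unadjusted p below 0.05 (5.33% and 3.9% of all tested genes), around a median of -0.26 for the log2 fold change, which was -0.37 to -0.10 over the alternatives. The sodium-glucose transporter Slc5a1, through which glucose triggers incretin release but which enterocytes also express, was at 576.5 ± 69.2 and 465.9 ± 61.1 CPM. The catecholamine receptor gene Adra2a, used by enterochromaffin cells, was at 80.0 ± 14.8 and 80.8 ± 6.01 CPM.

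Few receptors of the hormones were expressed in this sort: 11 of 31 were tested, and 11 had 0 counts in all libraries (among them Sctr, Cckbr, Ghsr and Ntsr1). Of those tested 0 were called by any of the 3 tools, where 0.523 to 1.85% of all tested genes were, by tool and direction. At an unadjusted p below 0.05 in edgeR 2 were lower and 0 higher, against 5.33% and 3.9% of all tested genes. The median was -0.03. Sort1, a sorting receptor that binds neurotensin, was the most abundant at 415.9 ± 31.0 and 408.3 ± 20.8 CPM, followed by the serotonin receptor gene Htr4 at 9.23 ± 1.29 and 9.15 ± 1.08 CPM (SD, n = 3 each).

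Of 21 other gut peptide genes only Iapp, Cartpt, Nmb, Ucn3 and Edn3 were abundant enough to test. By edgeR and limma-voom 0 of them were called, where 0.784% and 0.677% of all tested genes were lower and 0.623% and 0.523% higher. At an unadjusted p below 0.05 in edgeR 2 were lower and 1 higher, against 5.33% and 3.9% of all tested genes. DESeq2, which called 1.85% of all tested genes lower, called Cartpt lower. Ucn3 and Edn3 were the most abundant, at 5.91 ± 1.66 and 6.31 ± 0.723 CPM and at 2.75 ± 0.767 and 4.31 ± 1.20 CPM (SD, n = 3 each). The neuropeptide genes Vip, Npy, Crh and Tac4 had 0 counts. The 5 enzymes that cut or acylate the peptides had 0 calls by any of the 3 tools, where 0.523 to 1.85% of all tested genes were called, by tool and direction. At an unadjusted p below 0.05 in edgeR there were 0, against 5.33% lower and 3.9% higher of all tested genes. Their log2 fold changes lay on both sides of 0. Dpp4, which inactivates GIP and GLP-1, was at 134.3 ± 14.3 and 134.4 ± 21.1 CPM, and the aminopeptidase gene Enpep at 162.0 ± 26.8 and 204.5 ± 47.1 CPM.

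**Figure D4:**
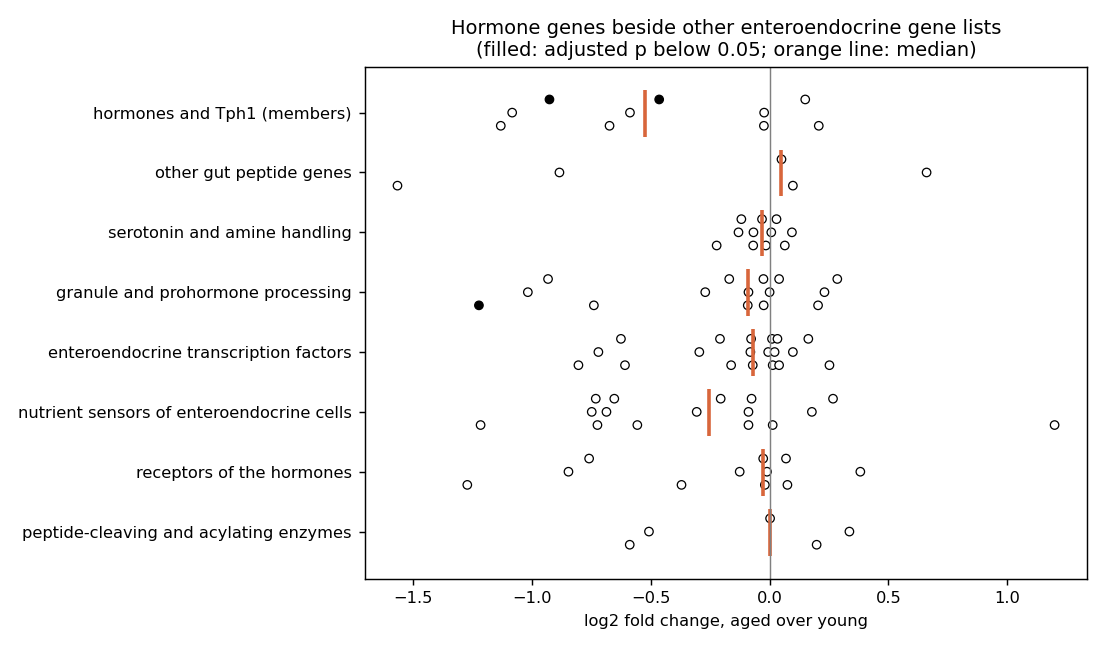
Log2 fold change, aged over young, of each tested gene in the set and in 7 related lists; 1 point is 1 gene, orange lines are medians, and filled points passed an adjusted p below 0.05. The filled points are Gip and Sst in the top row and Scg3 among the granule genes, and the serotonin and amine genes lie between -0.22 and 0.09.

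The genes whose pattern over the 6 libraries was most like that of Gip and Sst were found by the mean absolute distance between log2 CPM values centred on each gene's mean, among 10357 other genes whose mean was 5 CPM or more. For Gip they were Igsf9, Gper1 and Rgs11, at distances of 0.0388, 0.0523 and 0.0544 against a median of 0.247 over all those genes. For Sst they were Rbp4, Hsd17b2 and Ttll10, at 0.115, 0.141 and 0.142 against 0.478. With 6 libraries and this many genes, some genes come close to any pattern.

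The 6 libraries held 41479573 to 58989166 counts, and counting error alone puts the upper limit for a gene without counts at 3 counts, which is 0.0507 to 0.0720 CPM. Epcam, the sorting marker, averaged 1656 CPM at the young age and 1510 CPM at the aged one, with every aged library below every young one, and Ptprc, which encodes CD45, 0.235 and 0.230 CPM. The mitochondrial share of counts was 3.69, 2.07 and 1.48% in young replicates 1 to 3 and 2.88, 2.04 and 1.54% in aged replicates 1 to 3. Summed leukocyte markers ranged from 3.48 to 4.80 CPM at the young age and from 2.63 to 3.73 CPM at the aged one, with Lyz2 the most abundant. Fibroblast and muscle markers summed to at most 0.696 CPM and pancreatic ones to at most 0.528 CPM, and the sum of the 8 enterocyte markers overlapped between the ages. Of these, Slc5a1 and the sucrase-isomaltase gene Sis were lower in every aged library, as were 7.49% of all tested genes, at edgeR adjusted p = 0.412 and 0.197. DESeq2, which called 1.85% of all tested genes lower, called Sis lower.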

How the data were processed

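The authors deposited a matrix of whole-number counts, 1 column a library, whose totals differ and which therefore carries no depth scaling. GRCm38 is the build in the submitters' processing notes, which list STAR, HISAT2 2.1.0, featureCounts 1.6.4 and DESeq2 1.28.1 among the tools, with no role. Libraries were poly(A)-selected with a kit that keeps the strand, per the labels' protocols. Annotation release and counting strand are not given.

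Columns were matched to samples by the library identifiers in their titles. Counts were tested with edgeR 4.0.16 (R 4.3.3; filterByExpr, minimum count 10; TMM; robust quasi-likelihood fit, age as the only term, all 6 libraries), and p-values were adjusted over all 14923 genes tested. The SE is the log2 fold change over the square root of F. Whether the libraries come from separate mice rests on the series design; otherwise p-values measure only the spread between samples. Replicate numbers follow the accession order, and the labels do not say whether young and aged libraries were paired. Of the gene IDs, 45229 were found in GENCODE M21, which gave positions and union exon lengths for TPM; 849 were not. Promoters are from RefSeq. The genes and lists were chosen with earlier results of these data known. All 10 genes were named, as were called members of each list (up to 4 by smallest p) or, where none was called, its 2 most abundant; genes called by DESeq2 alone were named after their values were seen. Alternatives run were DESeq2 1.42.0, limma-voom (limma 3.58.1), other scalings and filters, non-robust estimation, the longest transcript for length, and leaving out each library. Leaving out 2 libraries together was added after the data were seen. The tests were checked on simulated counts.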

Additional observations from a re-analysis of the deposited data

How the results depend on the processing

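No paired analysis was possible because the labels give no replicate numbers. With all libraries, 93 genes were called higher and 117 lower, 2 genes of the hormone set were called lower, and 1 gene of the 7 related lists was called lower. DESeq2 gave 206, 276, 3 and 6, and no low-count filter gave 168, 245, 1 and 4. The filter of 1 CPM in 3 libraries gave 67 lower genes and 1 of the set. Without both libraries that stand apart there were 594 and 587 calls over all genes and 9 lower in the lists. Leaving out 1 library gave 35 (without aged replicate 2) to 135 (without aged replicate 3) higher and 30 (without aged replicate 1) to 135 (without aged replicate 3) lower genes over the table, 0 to 2 lower in the set (0 when young replicate 3 or aged replicate 1 or 2 was dropped, and 1 without young replicate 1 or 2) and 0 to 2 lower in the lists (0 without aged replicate 1 or 2). The other scalings, limma-voom and non-robust estimation kept these counts within a factor of 1.5. The log2 fold change of Sct was 0.16, 0.01, 0.04 and 0.23, and that of Pyy 0.22, 0.01, 0.42 and 0.66, without young replicate 2, aged replicate 2, aged replicate 3 and both that stand apart; without any 1 library the values ran from -0.14 to 0.16 for Sct and from -0.71 to 0.42 for Pyy. For the other 8 genes of the set the sign was the same in all 15 alternatives. With the longest transcript, 6 of 10 genes in young mice kept their place in the TPM order. Where 2 libraries were left in a group, the fit shared its estimate of spread over genes. The causes of these shifts were not tested. Within the set counts were lowest for Pyy and Nts, at 34 to 417 counts a library.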

Other observations

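Some genes of the related lists had values like those of Gip and Sst without passing the edgeR test; they were chosen after their values were seen. Both subunit genes of the ATP-sensitive potassium channel, Abcc8 (8.47 ± 0.854 and 5.75 ± 0.865 CPM) and Kcnj11 (0.812 ± 0.0936 and 0.479 ± 0.0669 CPM), were lower in every aged library (edgeR adjusted p = 0.167 and 0.356). Of the 2 DESeq2 called Abcc8 alone. Of the 16 sensor genes tested 7 were lower in every aged library and 1 higher, against 7.49% and 6.3% of all tested genes. The higher one was Olfr558, at a log2 fold change of 1.20 ± 0.40 (edgeR adjusted p = 0.298). The granin gene Scg2 was at 27.6 ± 4.70 and 14.4 ± 4.09 CPM (edgeR adjusted p = 0.0721), and Pcsk1n, which encodes an inhibitor of prohormone convertase 1, at 4.45 ± 0.566 and 2.20 ± 0.721 CPM (edgeR adjusted p = 0.104), both without overlap. Of the 15 granule genes 4 were lower in every aged library and 0 higher. The somatostatin receptor genes Sstr2 and Sstr3 had log2 fold changes of -0.76 ± 0.28 and -1.27 ± 0.38 at means under 1.5 CPM (edgeR adjusted p = 0.381 and 0.212). Sstr1, the most abundant of these receptor genes at 3.51 and 3.22 CPM, and Sstr5, at 2.70 and 2.09 CPM, overlapped between the ages, with log2 fold changes of -0.13 and -0.37. Sstr4 had 0 counts.

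The most abundant granule genes had higher means in aged libraries. Chga was at 506.1 ± 87.1 and 582.9 ± 10.5 CPM and Chgb at 1374 ± 235.6 and 1612 ± 113.1 CPM (SD, n = 3 each; edgeR adjusted p = 0.690 and 0.662), and neither passed. Lmx1a, a regulator used by enterochromaffin cells, was at 13.5 ± 2.34 and 13.9 ± 0.472 CPM, a log2 fold change of 0.04. No difference between these genes and the hormones was tested.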
